A study of Mus musculus with 9 samples.

Results

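The miR-192, miR-194 and miR-215 microRNAs (miRNAs) were taken as the mature 5p miRNAs miR-192-5p, miR-194-5p and miR-215-5p, with the copies of a mature miRNA added together. The first 2 are among the 269 mature miRNAs at their reference 5′ start that the study lists as highly expressed, and all 3 were located in the deposited alignments. Small RNA-seq joins adapters to both ends of short RNAs before reverse transcription and amplification, and the study asked how far the choice of library preparation changes the miRNA profile. MIN6, a mouse insulinoma cell line used as a model of insulin-secreting beta cells, was grown in 25 mM glucose with 10% heat-inactivated fetal bovine serum and prepared with Illumina TruSeq (3 libraries), Illumina v1.5 (3 libraries) or Bioo Scientific NEXTflex V2 (1 library). Liver RNA came from 1 C57BL/6J female mouse, a control animal bought at 9 weeks of age, injected through the tail vein with saline and fasted overnight 7 days later. The same liver RNA gave 1 TruSeq and 1 NEXTflex library, so a difference between these libraries is not a difference between animals, and no liver value has a replicate. The MIN6 TruSeq and v1.5 libraries shared the GAIIx platform, facility and date, whereas the other 3 libraries were run on HiSeq, and MIN6 NEXTflex also differed in RNA. The study used TRIzol for RNA extraction at NIH, where the GAIIx libraries were run, and a Norgen kit at UNC and for liver. TruSeq and v1.5 carry fixed adapter ends and NEXTflex carries degenerate bases at the ligated ends.

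A miRNA is cut from a hairpin precursor and its seed (bases 2 to 8) pairs with target mRNAs, so that a shift of the 5′ end by 1 base changes the seed. The mouse genome holds these miRNAs in pairs, miR-192 beside a copy of miR-194 and miR-215 beside the other copy. Both pairs are known for high levels in liver, intestine and kidney, and hepatocyte nuclear factor 1 is a known activator of their transcription. That factor was not measured here, and the name is used only for the miRNAs.

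The mature sequences show which members can be told apart by their reads. They are the RefSeq sequences (GRCm38.p6), written 5′ to 3′ with the seed in capitals.
miR-192-5p: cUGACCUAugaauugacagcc
miR-215-5p: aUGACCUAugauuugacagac
miR-194-5p: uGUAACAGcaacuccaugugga
miR-192-5p and miR-215-5p were identical at 18 of 21 bases and differed by C1A, A12U and C20A (miR-192-5p's base first, positions from 1 at the 5′ end). They were the only 2 of 1679 RefSeq mouse mature miRNAs with this seed, and miR-194-5p was the only 1 with its seed. Mir192 lies on the plus strand of chromosome 19 with the mature 5p sequence at chr19:6264857-6264877, and the Mir194-2 copy of miR-194-5p lies upstream of it at chr19:6264658-6264679. On chromosome 1, also on the plus strand, Mir194-1 gives miR-194-5p at chr1:185313325-185313346 and Mir215 gives miR-215-5p at chr1:185313610-185313630. In GENCODE M21, each hairpin is a miRNA gene, the chromosome 1 pair lies within the antisense gene 2010103J01Rik (Mir215 in its exon, Mir194-1 outside its exons) and in an intron of the minus-strand gene Iars2. Positions are those of GRCm38, while the deposited alignments are to mm9 and were not converted.

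The copies of miR-194-5p share their 22 bases and differ in the hairpin base that follows, so that only longer reads tell them apart. The mature sequence and the next 3 hairpin bases (in capitals) were as follows.
Mir194-1: tgtaacagcaactccatgtggaCTG
Mir194-2: tgtaacagcaactccatgtggaAGT

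Library depth, as the sum of the deposited counts, was 6923460 to 25638872 reads, and levels are given as reads per 1000000 mapped reads (RPMM), with mapped reads as tabulated by the study. MIN6 NEXTflex held 251879 distinct alignments and liver NEXTflex 179918, fewer than the 551421 to 2569547 of the other libraries. The part of this difference in the NEXTflex values was not tested. The tissue labels were checked against lists of tissue miRNAs. The beta cell and endocrine miRNAs (5 of 5 listed) were over 10-fold lower in liver in both preparations, with a summed level of 784 to 919 RPMM in liver and 98245 to 332721 RPMM in MIN6. The liver-enriched miRNAs (5 of 5 listed) had 2 that were over 10-fold higher in liver in each preparation, and all 5 were higher in liver with TruSeq and 4 with NEXTflex, where miR-148a-3p was at 3056 RPMM in liver and 4285 in MIN6. Their defining member miR-122-5p was at 17244 RPMM in liver TruSeq, 532452 in liver NEXTflex, 0.151 to 2.38 in the 6 MIN6 TruSeq and v1.5 libraries and 128 in MIN6 NEXTflex. In liver NEXTflex there were 0.0113 reads of miR-192-5p and 0.0280 of miR-194-5p per miR-122-5p read, and in liver TruSeq 4.77 and 0.620, against 1.95 and 3.14 in MIN6 NEXTflex and at least 163 in the other MIN6 libraries. The MIN6 TruSeq ratios rest on very few miR-122-5p reads, at 0.151, 0.438 and 0.581 RPMM where 3 reads are 0.451, 0.438 and 0.249 RPMM. Blood cell miRNAs (4 of 7 listed, summed level 1788 to 10376 RPMM in liver and 2.46 to 42.1 in MIN6) and endothelial and stromal miRNAs (4 of 4 listed, 4531 to 18610 and 85.4 to 290) were also higher in liver, and their part in the members' levels was not tested. The cells within a tissue and the RNA per cell cannot be told apart in these bulk samples.

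miR-192-5p was the most abundant member in liver TruSeq and in all 3 MIN6 TruSeq libraries, and miR-194-5p was the most abundant in the other 5 libraries. In MIN6 TruSeq, miR-192-5p was at 1291, 1308 and 1428 RPMM. In MIN6 v1.5 it was at 542, 549 and 579 RPMM, in MIN6 NEXTflex at 249, in liver TruSeq at 82266 and in liver NEXTflex at 6026. The 3 v1.5 values lay below the 3 TruSeq values without overlap, the NEXTflex value was the lowest in each tissue, and both liver values were above every MIN6 value. Among the 269 listed mature miRNAs, miR-192-5p ranked first in liver TruSeq (rank 1) and at rank 15 in liver NEXTflex, at 54 to 58 in MIN6 TruSeq, at 105 to 106 in v1.5 and at 112 in MIN6 NEXTflex.

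miR-194-5p, which is made from both loci, had a different order of preparations in MIN6. It was at 75.3, 90.5 and 95 RPMM in MIN6 TruSeq and at 630, 650 and 695 RPMM in v1.5. The single libraries held 401 RPMM in MIN6 NEXTflex, 10684 in liver TruSeq and 14899 in liver NEXTflex. TruSeq gave the lowest RPMM in both tissues, although in liver the order turned when counts were scaled to the reads on the named miRNAs (log2 fold of NEXTflex over TruSeq -0.30 in place of 0.48). In MIN6 its 3 values did not reach the study's limit of 100 RPMM for high expression, whereas v1.5 and NEXTflex values were all above it. Its rank was 173 to 183 in MIN6 TruSeq, 92 to 98 in v1.5, 89 in MIN6 NEXTflex, 12 in liver TruSeq and 7 in liver NEXTflex.

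miR-215-5p, which has the seed of miR-192-5p, was scarce in every library. It was at 2.26, 2.92 and 2.91 RPMM in MIN6 TruSeq (15, 20 and 35 reads) and at 3.97, 4.02 and 5.49 RPMM in v1.5 (50, 48 and 57 reads). MIN6 NEXTflex held 0 reads, which allows up to 0.117 RPMM at a limit of 3 counts. In liver it was at 16.1 RPMM in TruSeq (266 reads) and 6.53 in NEXTflex (94 reads, all of 1 form), so the order of tissues was that of the other members at a far lower level. At its reference start in liver TruSeq, 264 of 266 reads carried miR-215-5p's own base at position 12, where the pair differs. Intervals and limits here cover counting error only, since reads without molecular identifiers are not independent molecules.

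**Figure D1:**
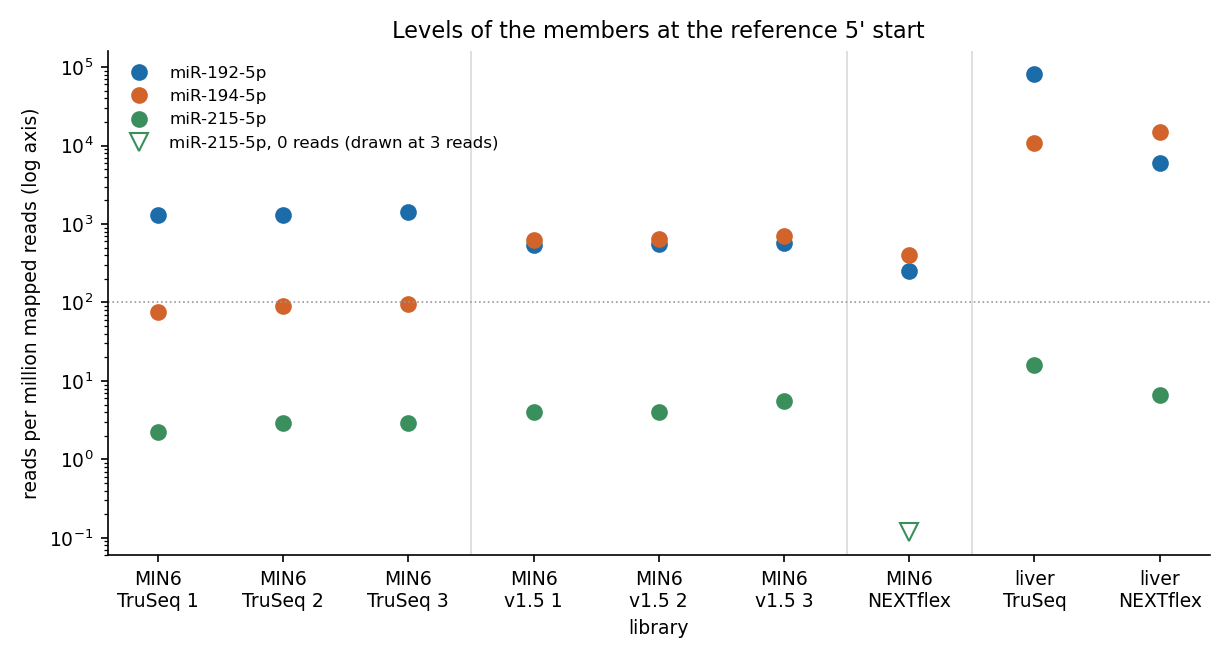
RPMM (reads per 1000000 mapped reads, log axis) of miR-192-5p, miR-194-5p and miR-215-5p at the reference 5′ start in each of the 9 libraries, with the limit of 100 RPMM dotted and the open triangle marking 0 reads, drawn at 3 reads. The miR-192-5p points lie above the miR-194-5p points in the TruSeq libraries and below them in v1.5 and NEXTflex.

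All members were higher in liver than in MIN6 within each preparation. With 1 RPMM added to both sides, miR-192-5p was 61.2-fold higher in liver with TruSeq (82266 against a mean of 1342 ± 74.8 RPMM, SD, n = 3) and 24.1-fold higher with NEXTflex. miR-194-5p was 122-fold higher with TruSeq (10684 against 86.9 ± 10.3 RPMM, SD, n = 3) and 37.1-fold higher with NEXTflex. Both members thus passed 10-fold in both preparations, as did 15.6% of the 377 listed miRNAs and 5′ isomiRs with TruSeq and 13.0% with NEXTflex. The median log2 fold over those 377 was -2.14 with TruSeq and -3.39 with NEXTflex, against 5.94 and 4.59 for miR-192-5p and 6.93 and 5.21 for miR-194-5p. miR-215-5p was 4.64-fold higher in liver with TruSeq, where its MIN6 values rest on 15 to 35 reads each, and the log2 fold of 2.21 became 1.46 with 5 RPMM added in place of 1. With NEXTflex it was 7.53-fold higher on the same basis, or 55.7-fold counted against the limit of 3 reads in MIN6. That limit covers counting error only, and the 94 reads of miR-215-5p in liver NEXTflex are 1 distinct alignment. These folds were not tested, since each preparation has 1 liver library and its spread is unknown. Liver and MIN6 TruSeq also differed in platform and RNA extraction, which cannot be told apart from the tissue.

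**Figure D2:**
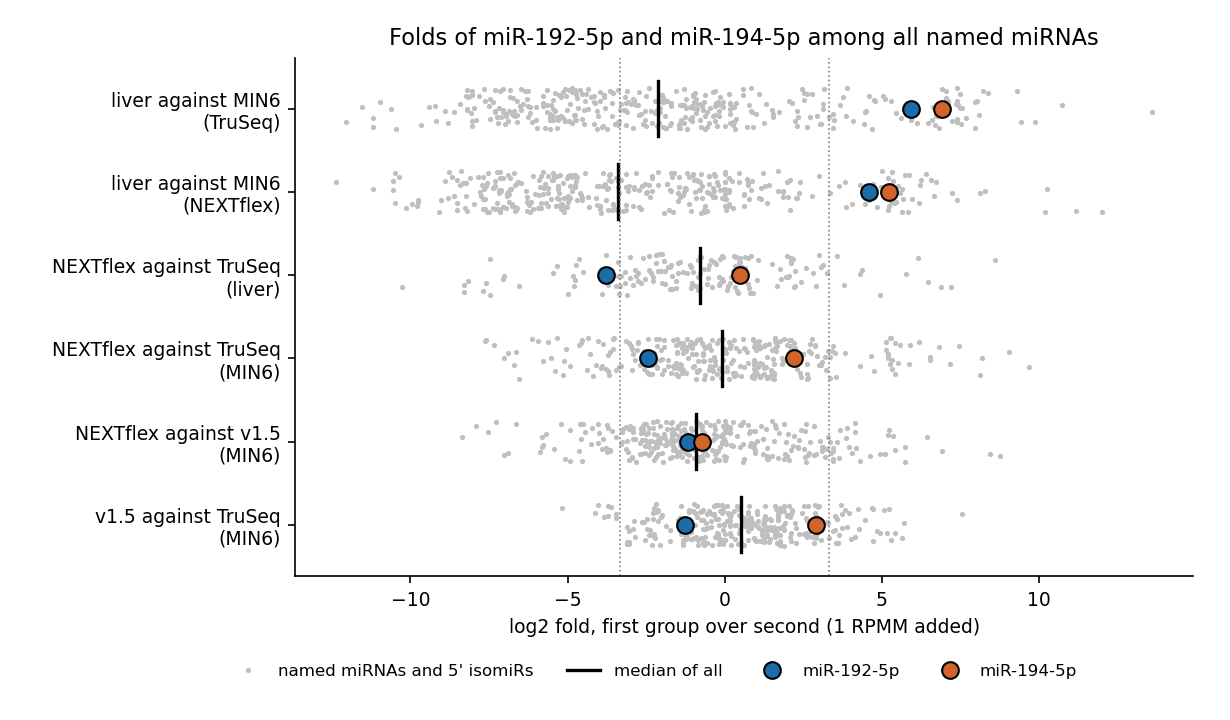
Log2 fold of the first group over the second, with 1 RPMM added, for all listed miRNAs and 5′ isomiRs of a comparison (grey points, vertical jitter only), with their median (black bar), 10-fold (dotted lines) and the members miR-192-5p and miR-194-5p. Both members lie right of the upper dotted line in liver against MIN6, and they lie on opposite sides of 0 wherever TruSeq is the second group of a preparation comparison, although in liver miR-194-5p moves from 0.48 to -0.30, the side of miR-192-5p, when counts are scaled to the reads on the named miRNAs.

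From TruSeq to v1.5 in MIN6, the 2 abundant members moved in opposite directions. In this comparison, where both groups have 3 libraries, miR-192-5p fell by 1.27 on the log2 scale (SE 0.0558; edgeR quasi-likelihood test, adjusted p = 7.86e-10) and miR-194-5p rose by 2.91 (SE 0.0856; adjusted p = 2.36e-11). As RPMM means, miR-192-5p went from 1342 ± 74.8 to 557 ± 19.7 and miR-194-5p from 86.9 ± 10.3 to 658 ± 33 (SD, n = 3 each). With 1 RPMM added to both sides, miR-192-5p was 2.41-fold lower and miR-194-5p 7.5-fold higher. The same test called 92.5% of the 322 miRNAs and 5′ isomiRs of at least 100 RPMM in at least 1 MIN6 library, so that a call by itself says little of the members. Neither passed 10-fold, which 13.0% of the 322 did in either direction. The median log2 change over the 322 was 0.56 and fell to 0.13 with edgeR's TMM factors; relative to 0.56, miR-192-5p was lower by a log2 change of -1.83 and miR-194-5p higher by 2.35. With a limit of 1 RPMM in place of 100, miR-215-5p was higher in v1.5 by 0.73 on the log2 scale (SE 0.204; edgeR adjusted p = 0.0196, where 67.8% of 27211 5′ ends were called), beside a median of 0.77 over those 5′ ends.

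The ratio of miR-192-5p to miR-194-5p within a library needs no scaling for depth and shows the same pattern. It was 17.1, 14.5 and 15 in MIN6 TruSeq and 0.860, 0.845 and 0.833 in v1.5. It was 0.621 in MIN6 NEXTflex, 7.70 in liver TruSeq and 0.404 in liver NEXTflex. In log2 units, the mean was 3.95 ± 0.129 in MIN6 TruSeq and -0.24 ± 0.0226 in v1.5, without overlap (exact permutation test of both sides, p = 0.1, the lowest that 3 libraries against 3 can give). All 4 TruSeq libraries were above 1 and the other 5 libraries below 1, in liver as in MIN6.

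In liver both preparations started from the same RNA, and folds again have 1 RPMM added to both sides. NEXTflex gave 13.6-fold less miR-192-5p than TruSeq (log2 fold -3.77, or -4.55 when counts were scaled to the reads on the named miRNAs). A value over 10-fold lower in NEXTflex was found for 17.6% of the 165 miRNAs and 5′ isomiRs listed in liver. miR-194-5p was 1.39-fold higher in NEXTflex, but this direction turned under that scaling (log2 fold -0.30 in place of 0.48). miR-215-5p was 2.27-fold lower in NEXTflex, at 6.53 against 16.1 RPMM from 94 and 266 reads (log2 fold -1.19, or -1.91 under that scaling). The median log2 fold over the 165 was -0.80.

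In MIN6, with 1 RPMM added to both sides, NEXTflex gave 5.37-fold less miR-192-5p and 4.57-fold more miR-194-5p than the mean of TruSeq. Against the mean of v1.5 it gave 2.23-fold less miR-192-5p and 1.64-fold less miR-194-5p, beside a median log2 fold of -0.92 over all 322. Neither member passed 10-fold in either comparison, whereas 23.9% of the 322 did against TruSeq and 21.1% against v1.5. miR-215-5p, with 0 reads in NEXTflex, was 3.70-fold lower than in TruSeq and 5.49-fold lower than in v1.5 on that basis. Counted against the limit of 3 reads, which covers counting error only, it was 23-fold and 38.3-fold lower. RNA, platform, facility and date changed with the preparation in these NEXTflex comparisons and cannot be told apart from it.

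Reads of miR-192-5p began at 2 main places. Among all reads with a 5′ end within 5 nt of the reference start, those that began 1 base downstream (the +1 start) made up 17.8%, 19.2% and 19.8% in MIN6 TruSeq and 19.8%, 20.3% and 20.6% in v1.5. The share was 15.3% (95% Wilson interval 14.5% to 16.1%) in MIN6 NEXTflex, 26.6% (26.5% to 26.7%) in liver TruSeq and 15.4% (15.2% to 15.7%) in liver NEXTflex. Liver TruSeq thus had the highest share and the NEXTflex libraries the lowest. All shifted starts together came to 19.1% ± 1.03 in TruSeq and 20.3% ± 0.399 in v1.5 (SD, n = 3), and these overlapped (two-sided exact permutation test, p = 0.2; adjusted p = 0.2 over 8 shares tested). The +1 isomiR has bases 3 to 9 of miR-192-5p as its seed, GACCUAU, which is the seed of 0 of the 1679 RefSeq mouse mature miRNAs. It fell by 1.16 on the log2 scale from TruSeq to v1.5 (SE 0.0857; edgeR adjusted p = 1.01e-07), close to the reference start's -1.27.

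miR-194-5p began almost only at its reference start. Shifted reads made up 1.07% in liver TruSeq and 1.14% in liver NEXTflex, more than in any MIN6 library, and 0.0195% in MIN6 NEXTflex. In MIN6 they made up 0.182% to 0.276% in v1.5 and 0.398% to 0.482% in TruSeq. The v1.5 and TruSeq shares did not overlap (exact permutation test, two-sided, p = 0.1, the lowest possible; adjusted p = 0.133), but the TruSeq shares rest on 2, 3 and 5 reads, and with exact alignments only the difference shrank from -0.213 to -0.0442 percentage points (exact permutation test, p = 0.7). At the miR-215-5p locus, 16.0% of the liver TruSeq reads began at the +1 start, and 47.3 of these 51.3 reads carried miR-192-5p's base at position 12. Where a read mapped equally well to both places it was divided between them. Those +1 reads are therefore given here as reads placed at the locus and not as a form of miR-215-5p.

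The 3′ end of miR-192-5p differed between its starts. With the reference start, the commonest length was 21 nt, the mature length, in all 9 libraries. The +1 reads reached further: in liver TruSeq 58.6% of them were 23 nt long, which ends 3 bases past the mature end, and only 8.85% were 20 nt long and shared the mature end. In liver NEXTflex 43.8% of the +1 reads were 23 nt long, and in MIN6 TruSeq 33% to 35.3%. MIN6 v1.5 had 39.4% to 41.8% of them at 21 nt and MIN6 NEXTflex 56.4% at 22 nt. The 5 commonest forms in liver TruSeq were, in lower case where the base matches the hairpin and in capitals where it does not, as follows.
reference start, 21 nt: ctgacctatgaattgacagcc
+1 start, 23 nt: tgacctatgaattgacagccagt
reference start, 22 nt: ctgacctatgaattgacagccT
reference start, 20 nt: ctgacctatgaattgacagc
reference start, 24 nt: ctgacctatgaattgacagccaTt
They made up 46.5%, 13.2%, 6.83%, 4.60% and 3.57% of all miR-192-5p reads in that library. In MIN6 TruSeq the same forms made up 64.8% to 67.3%, 5.21% to 6.27%, 2.45% to 2.80%, 3.73% to 3.84% and 0.06% to 0.10%.

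The 3′ ends of miR-192-5p did not overlap between v1.5 and TruSeq either. At the reference start, 82.9%, 81.8% and 82.7% of reads were 21 nt long in MIN6 TruSeq and 45.3%, 45.9% and 45.7% in v1.5 (means 82.5% ± 0.566 and 45.6% ± 0.293, SD, n = 3; exact permutation test, two-sided, p = 0.1, the lowest possible; adjusted p = 0.133). On both sides of the mature end the groups lay apart, with 20-nt reads at 4.61% to 4.86% in TruSeq and 13.0% to 14.4% in v1.5, and 22-nt reads at 8.39% to 8.92% and 31.6% to 33.6%. Most 22-nt reads in v1.5 ended in the hairpin's own next base, with the form below at 23.3%, 25.1% and 25.6% of all miR-192-5p reads against 3.81% to 4.47% in TruSeq.
reference start, 22 nt, matching: ctgacctatgaattgacagcca
An adenine added after cutting would read the same, so a matching 22nd base does not tell the hairpin's base from an addition. The 21-nt share was 86.4% in MIN6 NEXTflex, 65.9% in liver TruSeq and 62.4% in liver NEXTflex.

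**Figure D3:**
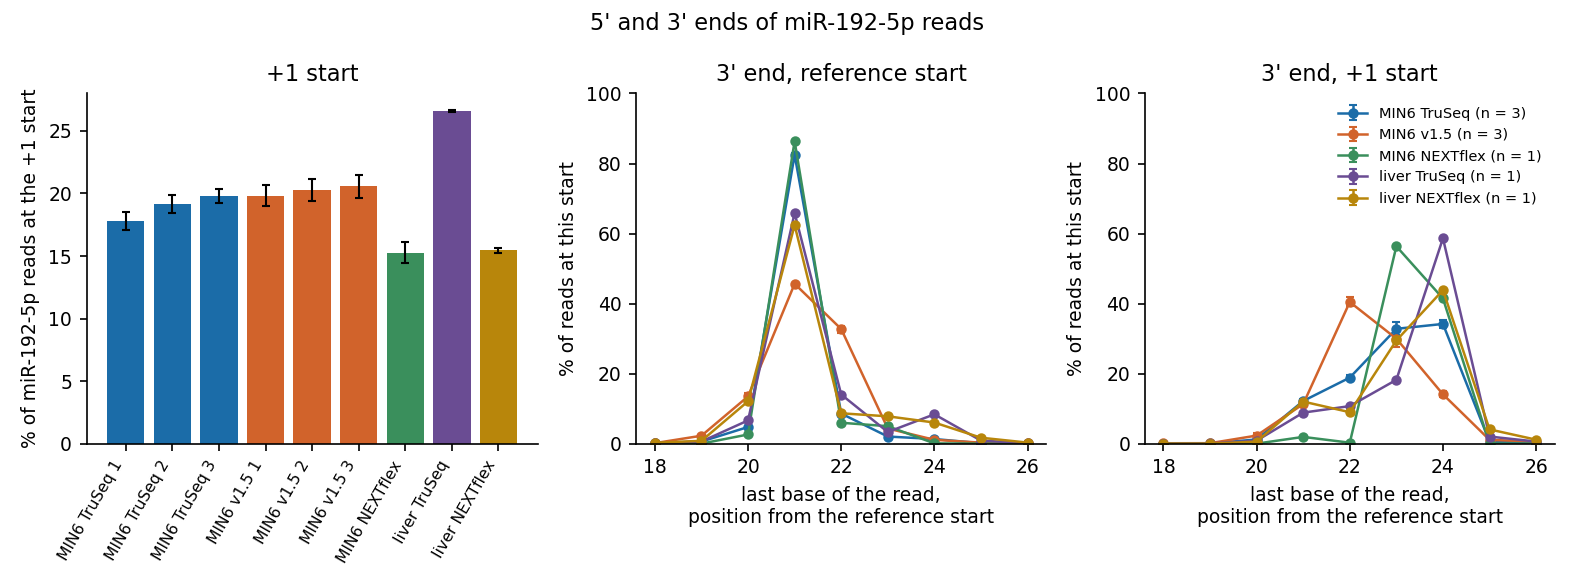
Left, share of miR-192-5p reads that began at the +1 start in each library, with 95% Wilson intervals; middle and right, the position of the last base of the reads (counted from 1 at the reference start) for each start, as group means with bars from the lowest to the highest library. Reference-start reads peak at position 21 in every group, and +1 reads end 1 to 3 positions later.

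The commonest length of miR-194-5p was 23 nt in liver and 22 nt in MIN6. In MIN6 TruSeq, 72.0%, 74.4% and 78.5% of its reference-start reads were 22 nt long, and in v1.5 67.2%, 68.5% and 67.0% (exact permutation test, two-sided, p = 0.1, the lowest possible; adjusted p = 0.133). In liver, 23-nt reads were at 61.9% of reads in TruSeq and 46.9% in NEXTflex, against 9.48% to 16.2% in the MIN6 TruSeq and v1.5 libraries and 25.8% in MIN6 NEXTflex. MIN6 NEXTflex spread over 21, 22, 23 and 24 nt at 28.7%, 29.1%, 25.8% and 16.3%, and liver NEXTflex had only 2.25% at 24 nt. The mean length was 22.6 nt in liver TruSeq against 22 nt in each MIN6 TruSeq library, and 22.3 nt in both NEXTflex libraries. A short form that ended 4 bases early made up 2.70% to 3.70% of the miR-194-5p reads in MIN6 TruSeq and 2.20% in liver TruSeq, against 0.06% to 0.15% in v1.5 and 0% in both NEXTflex libraries.
18 nt: tgtaacagcaactccatg

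The base at position 23 separates the miR-194 copies, since Mir194-2 has A there and Mir194-1 has C. Reads of 23 nt that end in A were 11.0%, 8.40% and 7.60% of the reference-start reads in MIN6 TruSeq and 8.52%, 9.10% and 9.02% in v1.5. They were 16.5% (95% Wilson interval 15.8% to 17.3%) in MIN6 NEXTflex, 59.5% (59.3% to 59.8%) in liver TruSeq and 43.4% (43.2% to 43.6%) in liver NEXTflex. Both liver libraries were above all 7 MIN6 libraries, and TruSeq and v1.5 overlapped in MIN6. Reads of 23 nt that end in C, the Mir194-1 base, made up only 0.0293% to 0.437% in the 9 libraries. An A added to a 22-nt product of either copy reads as the Mir194-2 form, so these shares do not measure how much of miR-194-5p came from each locus.
Mir194-2 form, 23 nt: tgtaacagcaactccatgtggaa

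**Figure D4:**
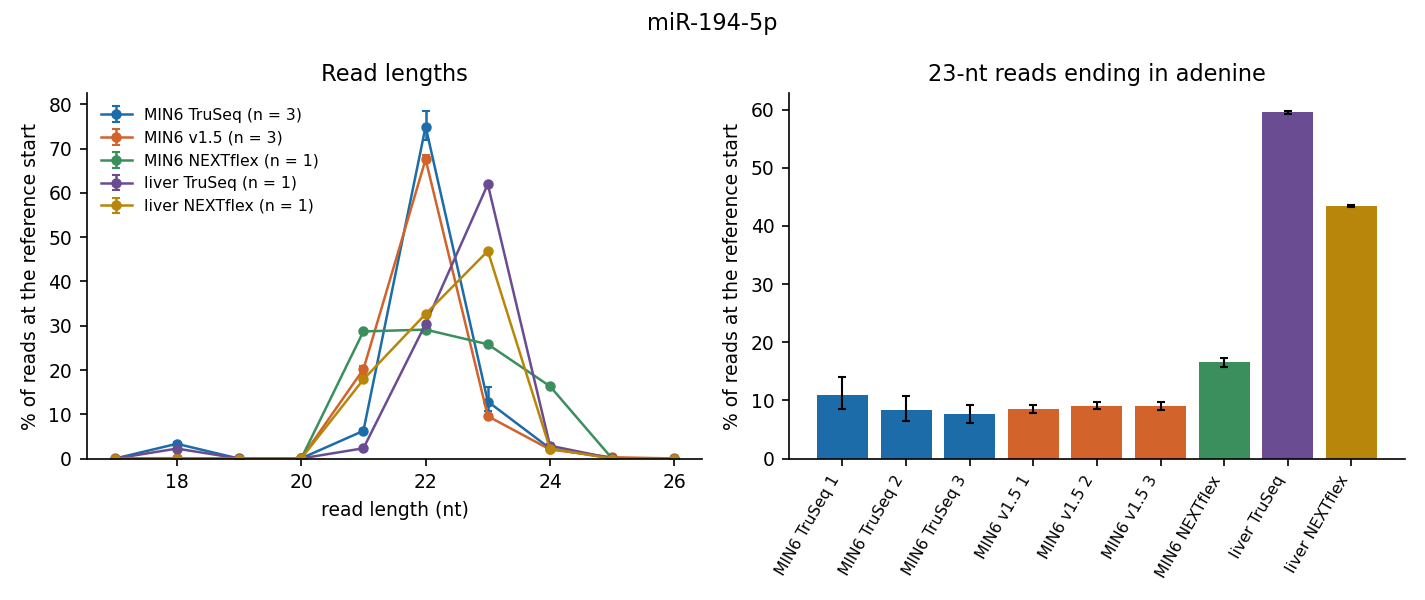
Left, read lengths of miR-194-5p at the reference start, as group means with bars from the lowest to the highest library; right, share of its reference-start reads that are 23 nt long and end in adenine, with 95% Wilson intervals. The liver groups peak at 23 nt and the MIN6 TruSeq and v1.5 groups at 22 nt, and the right panel shows 59.5% and 43.4% in liver against at most 16.5% in MIN6.

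The 3p arms, whose sequences differ between the copies, also give reads that belong to 1 locus. The seed is again in capitals.
miR-194-1-3p: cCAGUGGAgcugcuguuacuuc
miR-194-2-3p: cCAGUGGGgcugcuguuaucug
At its reference start miR-194-2-3p had 778 reads in liver TruSeq (47.2 RPMM) and 2332 in liver NEXTflex (162 RPMM), whereas miR-194-1-3p had 3 reads and 0 reads. In MIN6, miR-194-2-3p had 4 to 8 reads in TruSeq, 25 to 32 in v1.5 and 2 in NEXTflex, and miR-194-1-3p had 0 in all 7 libraries. More reads of the chromosome 19 copy's 3p arm were thus found in each library, although in MIN6 NEXTflex the 2 reads against 0 lie within the limit of 3 reads. The other arm of Mir192, miR-192-3p, had 639 reads in liver TruSeq and 228 in liver NEXTflex, and at most 20 in a MIN6 library. miR-215-3p had at most 6 reads in any library. Over the libraries, reads of the 3p arm were 0% to 0.316% of the Mir192 arm reads and 0.0322% to 2.83% of those placed at Mir194-2, where the 5p reads shared by both copies are divided.

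A last base that does not match the hairpin can be an addition made after cutting, most often adenine or uridine (read as T), or a sequencing error, and the counts do not tell these apart. At the reference start of miR-192-5p, the last base mismatched in 6.13%, 6.01% and 5.61% of reads in MIN6 TruSeq and in 5.57%, 5.54% and 5.24% in v1.5. It mismatched in 7.96% in MIN6 NEXTflex (95% Wilson interval 7.32% to 8.65%), in 15.8% in liver TruSeq (15.8% to 15.9%) and in 12.9% in liver NEXTflex (12.7% to 13.1%). The v1.5 shares lay just below the TruSeq shares (difference -0.467 percentage points; exact permutation test, two-sided, p = 0.1, the lowest possible; adjusted p = 0.133), and liver was above MIN6 in both preparations. With mismatches counted in any of the last 3 bases, the v1.5 and TruSeq shares overlapped (difference -0.252 percentage points; exact permutation test, p = 0.3). That count gave 22.2% in liver TruSeq, 17.4% in liver NEXTflex and 8.01% in MIN6 NEXTflex. T was the commonest mismatching base in all 9 libraries, with 13.4% of reads in liver TruSeq, 8.36% in liver NEXTflex and 3.92% to 5.23% in the 7 MIN6 libraries. In MIN6 NEXTflex C followed T at 2.92%, where the other MIN6 libraries had 0.137% to 0.299%. Beside 507 mismatching reads in MIN6 NEXTflex, 1 form of 22 nt ending in C had 183 reads and 1 form of 23 nt ending in TT had 271.

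The last base of the +1 reads of miR-192-5p mismatched in 6.16% to 6.99% in MIN6 TruSeq, 10.3% to 12% in v1.5, 41.4% in MIN6 NEXTflex, 14.7% in liver TruSeq and 22.6% in liver NEXTflex. A made up nearly all of it in NEXTflex, with 41.3% of the +1 reads in MIN6 and 20.1% in liver. In MIN6 NEXTflex nearly all of it was 1 form, printed below, with 469 reads beside 475 mismatching +1 reads. In liver TruSeq T led at 8.63%, with A at 5.49%. T also led in MIN6 TruSeq, at 3.22% to 3.98% with A at 2.47% to 3.01%, and in v1.5 the shares were similar, at 4.5% to 6.03% for T and 5.0% to 5.5% for A. The commonest form with a mismatching A, below, was 6.24% of all miR-192-5p reads in MIN6 NEXTflex, 2.70% in liver NEXTflex, 0.86% in liver TruSeq and 0.26% to 0.78% in the other 6 libraries.
+1 start, 23 nt: tgacctatgaattgacagccagA

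At the reference start of miR-194-5p, the last base mismatched in 6.30%, 4.68% and 4.33% of reads in MIN6 TruSeq and in 2.06%, 2.24% and 2.17% in v1.5, without overlap (means 5.10% ± 1.05 and 2.15% ± 0.0912, SD, n = 3; exact permutation test, two-sided, p = 0.1, the lowest possible; adjusted p = 0.133). The share was 19.4% in MIN6 NEXTflex, with T in 15% of all reads, and 4.33% and 4.51% in liver TruSeq and liver NEXTflex. MIN6 NEXTflex was thus the highest of the 9 libraries for miR-194-5p, and its share was 25.5% with mismatches counted in any of the last 3 bases. The liver values lay within the MIN6 range for TruSeq and below MIN6 for NEXTflex, whereas at the reference start of miR-192-5p they were above MIN6 in both. An adenine at position 23 matches Mir194-2 and is not counted among these mismatches. The NEXTflex reads had a fixed 4 bases cut from each end by the authors before alignment, and its part in the 3′ ends was not tested. For miR-215-5p the shares rest on 15 to 57 reads a library in MIN6 (two-sided exact permutation test, p = 0.1; adjusted p = 0.133), and 1 to 4 of these reads mismatched.

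**Figure D5:**
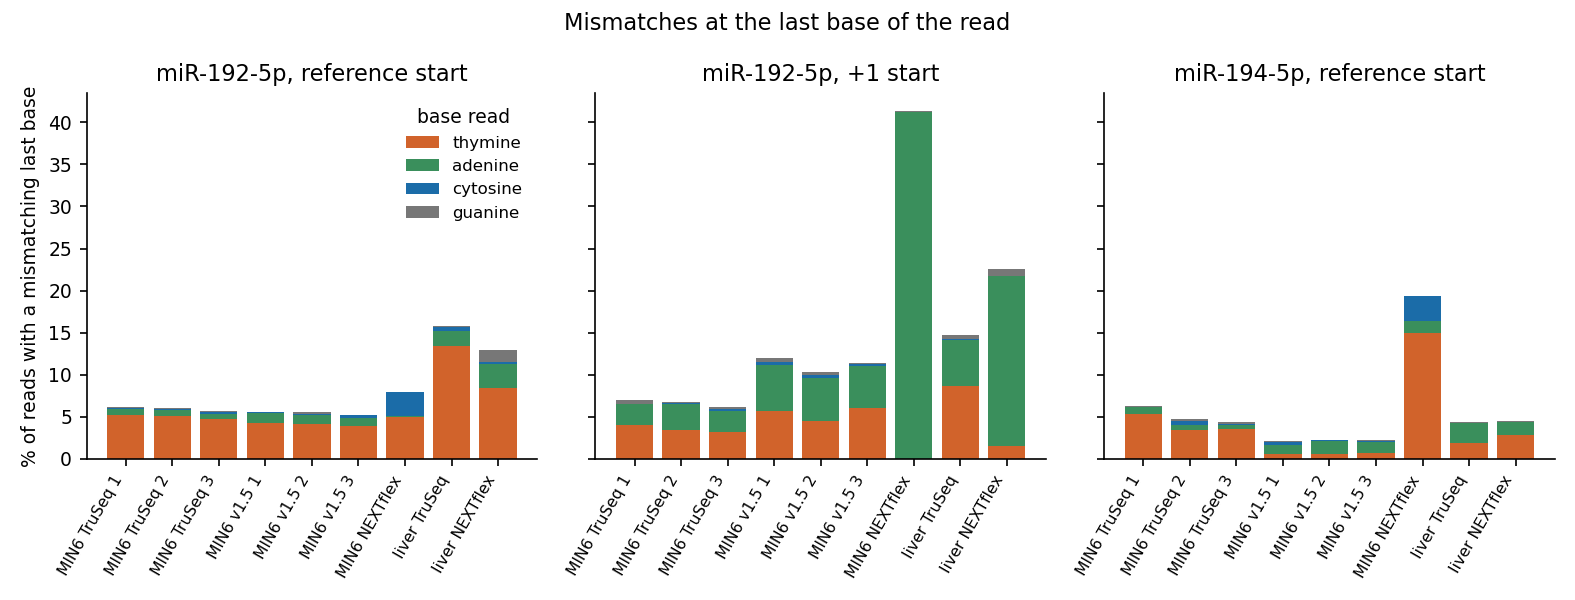
Share of reads whose last base mismatches the hairpin, stacked by the base read, for miR-192-5p at the reference and +1 starts and for miR-194-5p, on a shared axis. The tallest bar is adenine on +1 reads of miR-192-5p in MIN6 NEXTflex (41.3%, nearly all 1 form), and thymine leads at the reference start of miR-192-5p in all 9 libraries.

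Over the 9 libraries, the miRNAs whose log2(RPMM + 1) followed miR-192-5p most closely among 265 others were miR-126-5p (Pearson r = 0.99), miR-142-5p (r = 0.99) and miR-30a-5p (r = 0.97). For miR-194-5p they were miR-125b-5p (r = 0.98), miR-30a-3p (r = 0.97) and miR-126-3p (r = 0.95). The correlation of miR-192-5p with miR-194-5p was lower, at r = 0.64, which ranked 32 of 265. These are descriptions over libraries that fall into 5 groups by tissue and preparation, and the median over all 265 was -0.66 for miR-192-5p and -0.65 for miR-194-5p. Opposite arms of the same hairpin appeared on opposite lists, with miR-126-5p and miR-30a-5p beside miR-192-5p and miR-126-3p and miR-30a-3p beside miR-194-5p. In the TruSeq libraries of MIN6, miR-126-5p was at 117 to 125 RPMM and miR-126-3p at 11.4 to 13.7, and in v1.5 at 70.8 to 78.8 and 191 to 208.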

How the data were processed

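Each deposited file lists distinct alignments with an expected count, and the deposited expected counts were not scaled for depth. Per the labels and the study's methods, the authors trimmed 3′ adapters with cutadapt (for NEXTflex, also 4 bases at each end), aligned reads to mm9 with Bowtie and divided a read among equally good places; versions are not given in the sources used here. Alignment was not repeated.

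Reads that start at the same base were added up, and RPMM is that sum over the study's mapped reads; sums of the counts exceed these by 0.264% to 8.41%. Ends of exact alignments are 1 nt short in the files and were corrected. All 358 MIN6 and 178 liver entries of the study's lists were placed by equal RPMM, 15 with more than 1 match. miR-215-5p is on neither list and was placed 285 nt downstream of the Mir194-1 5p start, their distance in RefSeq; its 106 mismatching bases were never the hairpin's base. Letters in the edit strings are the read's bases: at the Mir192 hairpin 0 of 528509 mismatching bases equalled the hairpin's.

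v1.5 and TruSeq were compared with edgeR 4.0.16 (quasi-likelihood, R 4.3.3), with counts rounded to whole numbers, mapped reads as library sizes and Benjamini-Hochberg adjustment over all features. SE is the log2 change divided by the square root of F. Tested on simulated data, 198 of 200 features changed 2-fold were recovered and 2 of 122 unchanged ones called. DESeq2 1.42.0 was an alternative. Replicates, called biological by the study, differed by more than sampling noise (chi-square per degree of freedom 31.8 to 111). Named are the members, their other arms, the tissue miRNAs and the 3 miRNAs nearest to each abundant member. Members and lists were chosen with earlier results of these data known.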

Additional observations from a re-analysis of the deposited data

How the results depend on the processing

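The edgeR count of 298 calls in v1.5 against TruSeq became 131 with a limit of 500 RPMM (138 miRNAs tested) and 18438 with every 5′ end of at least 1 RPMM tested (27211), and was 286 to 326 under the other 14 alternatives, among them DESeq2's test (304 calls), TMM factors (303) and each replicate left out (286 to 296). The replicate numbers are shared by v1.5 and TruSeq, but same-numbered libraries deviated together only with r = 0.09, 0.21 and 0.20, so they were not taken as pairs; every library correlated best with its own number, and the replicate block gave 300 calls. The v1.5 against TruSeq changes of miR-192-5p and miR-194-5p kept their direction and their side of the threshold in the 33 values of the alternatives run, with log2 changes of -1.30 to -1.22 and 2.83 to 2.99 when a replicate was left out, -1.70 and 2.48 with TMM factors and -1.80 and 2.38 with DESeq2's factors. The shares of read forms (72 values; counting mismatches in any of the last 3 bases was chosen after seeing the data) and the ratio (8 values) kept their direction, and 3 libraries against 3 cannot pass the threshold. Their size changed by over 1.5 times for the shifted starts with exact alignments only (1.2 to 0.571 percentage points for miR-192-5p and -0.213 to -0.0442 for miR-194-5p) or without TruSeq replicate 1 (0.639 for miR-192-5p), for miR-192-5p mismatches in the last 3 bases (-0.467 to -0.252), and for miR-215-5p without TruSeq replicate 2 (mismatches, -7.01 to -2.41) or v1.5 replicate 3 (commonest length, -20.4 to -13.4).

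Folds with no test moved by more than the error of replicates or counts as follows, on the log2 scale. Scaled to the reads on the named miRNAs, liver against MIN6 became 6.49, 7.48 and 2.76 for miR-192-5p, miR-194-5p and miR-215-5p with TruSeq and 4.63 and 5.25 for the first 2 with NEXTflex. NEXTflex against TruSeq became -4.55, -0.30 (from 0.48) and -1.91 in liver, and -2.69, 1.93 and -4.78 (from the limit of 3 reads) in MIN6; NEXTflex against v1.5 became -1.28 and -0.84. With exact alignments only, liver against MIN6 became 5.66 (miR-192-5p, TruSeq), 4.44 (miR-192-5p, NEXTflex) and 5.54 (miR-194-5p, NEXTflex), NEXTflex against TruSeq became -3.69 and 0.46 in liver and 1.86 for miR-194-5p in MIN6, and against v1.5 -1.08 for miR-194-5p. With all 5′ starts, liver against MIN6 with TruSeq became 6.09 for miR-192-5p and 2.47 for miR-215-5p, and miR-192-5p became -3.98 for NEXTflex against TruSeq in liver and -1.24 against v1.5. Scaled by the sums of the counts, the liver preparations gave -3.66 and 0.59, and miR-192-5p gave -1.10 for NEXTflex against v1.5. With 0.1 or 5 RPMM added, miR-215-5p in liver against MIN6 with TruSeq became 2.54 or 1.46; these were not run for its 0 reads in MIN6 NEXTflex. Where no construction of the setting shows it, the cause was not tested. Values of miR-215-5p rest on few reads, 0 to 57 in a MIN6 library, and the 0 is in MIN6 NEXTflex, the deepest of the 9 libraries. The 1 liver mouse gives no spread between animals.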
